A study of Mus musculus with 12 samples.

Results

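H3K27me3 peaks of cells that carried an added Ezh1 when Ezh2 was deleted (Ezh1 rescue, 1 library) were set against those of Ezh2 -/- cells without it (knockout, 2 libraries). The question was where Ezh1 restores peaks that are absent without Ezh2. Ezh1 was present before the deletion, so a restored peak is one that wild type and the Ezh1 rescue had and the knockout lacked. Whether it was kept or regained cannot be told from these lists. The members are all autosomal peaks of these 3 libraries, with exact duplicate lines counted once. They number 112185, namely 111774 in the Ezh1 rescue, 29 in knockout replicate 1 and 382 in knockout replicate 2, of 461631 peaks in the 10 lists of the series; the 3 libraries are 3 of 12 samples. All cells were C2 iMEFs, a c-Myc transformed line of mouse embryonic fibroblasts obtained as 1 clone by limiting dilution, with the genotype Ezh2 flox/Δ;ROSA26-CreERT2. 4-hydroxytamoxifen (OHT) activates the Cre recombinase and deletes the floxed allele. In the Ezh1 rescue, which the labels call the pre-rescue condition, a retrovirus (MSCVhygro-Flag-Ezh1, selected with hygromycin) expressed tagged Ezh1 before the deletion, and an Ezh2 rescue (1 library) was made in the same way. Untreated cells, labelled Ezh2 WT/WT, gave 2 libraries here (experiment 2, antibody clone 7b11, 100-bp Illumina reads) and 2 in a separate experiment (experiment 1, a different antibody from Active Motif, 75-bp SOLiD reads), and both served as wild type.

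The lists give peak positions alone. The methods give an approximate read number per sample, but the depth behind each list is not given. Absence means that no peak was called. The labels name H3K27me3 as the target of both antibodies, but the methods also list an H3K27me2/3 antibody for sequencing, so peaks of experiment 2 may include the dimethylated form. The methods describe down-sampling to a common read number and a coefficient that lowers the knockout more than the Ezh1 rescue. They name no coefficient for wild type or the Ezh2 rescue. The lists do not show whether peaks were called on the reads so scaled. The Ezh1 rescue has no replicate, so no test was run, and intervals are 95% Wilson intervals that cover counting error only. Neighbouring peaks and genes under 1 peak are not independent. Nothing in the sources says that the 2 knockout libraries are separate cultures. No peak lay at the Ezh2 promoter (2500 bp on either side of the transcription start site, TSS) in any of the 3 libraries, so the lists do not check the genotype. The promoter of Col1a1, a collagen gene that defines fibroblasts, had no peak in any of them either.

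EZH1 and EZH2 are the alternative catalytic subunits of Polycomb repressive complex 2 (PRC2), which also needs EED and SUZ12 and places methyl groups on lysine 27 of histone H3. The trimethylated form, H3K27me3, marks silent genes, above all regulators of development in lineages other than the cell's own, and is often found over CpG-rich promoters. EZH2 is the more active methyltransferase and prevails in dividing cells, whereas EZH1 is also present in resting cells.

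The sequences just upstream of 7 TSSs show the promoters on which the groups below turn, with every CG dinucleotide in capitals. Each is 200 bp long, 5′ to 3′ on the strand of its gene, and comes from the NCBIM37 (mm9) genome. Prdm12 (chr2:31495357-31495556, plus strand) had promoter peaks in the Ezh1 rescue and in both knockout libraries. Ptprv (chr1:137008884-137009083, minus strand) and Ptpn7 (chr1:137029102-137029301, plus strand) had wild-type promoter peaks, none in the knockout, and the widest Ezh1 rescue peak of all such genes. Plxdc1 (chr11:97847759-97847958, minus strand) and Atp6v0c (chr17:24306648-24306847, minus strand) had wild-type promoter peaks of experiment 2 and none in the Ezh1 rescue. Hspa8 (chr9:40608867-40609066, plus strand) and Nop56 (chr2:130099966-130100165, plus strand) had a promoter peak in knockout replicate 2 and none in the Ezh1 rescue.
Prdm12: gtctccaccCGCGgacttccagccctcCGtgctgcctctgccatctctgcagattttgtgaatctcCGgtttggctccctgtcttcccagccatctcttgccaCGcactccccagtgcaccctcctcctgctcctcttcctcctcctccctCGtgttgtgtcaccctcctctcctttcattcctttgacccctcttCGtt
Ptprv: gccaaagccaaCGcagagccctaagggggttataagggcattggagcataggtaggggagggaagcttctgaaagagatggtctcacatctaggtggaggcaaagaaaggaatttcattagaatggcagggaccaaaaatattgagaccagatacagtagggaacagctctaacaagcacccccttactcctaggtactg
Ptpn7: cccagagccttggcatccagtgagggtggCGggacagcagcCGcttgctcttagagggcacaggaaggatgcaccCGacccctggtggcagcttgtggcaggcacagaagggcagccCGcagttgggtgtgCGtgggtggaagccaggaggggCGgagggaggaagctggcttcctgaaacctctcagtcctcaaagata
Plxdc1: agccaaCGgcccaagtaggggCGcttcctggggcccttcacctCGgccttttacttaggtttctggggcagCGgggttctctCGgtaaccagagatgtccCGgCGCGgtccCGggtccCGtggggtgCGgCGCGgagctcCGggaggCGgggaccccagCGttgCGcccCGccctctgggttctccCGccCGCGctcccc
Atp6v0c: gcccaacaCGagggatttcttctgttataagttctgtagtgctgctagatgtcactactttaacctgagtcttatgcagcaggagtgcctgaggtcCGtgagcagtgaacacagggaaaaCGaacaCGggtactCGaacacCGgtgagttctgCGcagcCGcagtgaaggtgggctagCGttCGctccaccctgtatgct
Hspa8: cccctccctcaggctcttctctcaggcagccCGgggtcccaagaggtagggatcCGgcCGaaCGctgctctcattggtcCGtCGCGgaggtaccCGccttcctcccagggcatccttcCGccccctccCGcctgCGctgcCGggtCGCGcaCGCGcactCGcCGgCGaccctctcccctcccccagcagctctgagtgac
Nop56: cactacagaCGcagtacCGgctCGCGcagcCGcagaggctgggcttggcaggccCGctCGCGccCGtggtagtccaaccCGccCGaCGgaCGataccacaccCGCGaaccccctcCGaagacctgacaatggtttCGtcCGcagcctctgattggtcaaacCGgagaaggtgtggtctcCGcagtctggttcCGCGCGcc
The stretch at Prdm12 held 7 CGs, a number reached or passed by 53.1% of the 21418 promoter stretches of this length, and lay under peaks of the Ezh1 rescue and knockout replicate 2 but not of replicate 1. The stretches at Ptprv and Ptpn7, both wholly under the Ezh1 rescue peak, held 1 and 6 CGs (90.5% and 56.6% of promoters have as many). Those at Plxdc1, Atp6v0c, Hspa8 and Nop56 were under no peak of the 3 libraries and held 21, 10, 19 and 23 CGs (13.1%, 43.3%, 17.3% and 9.91% of promoters have as many). The median was 20.5 over the 8 genes with a promoter peak in both knockout libraries, so Prdm12 is below most of its group, and 7 over all promoters. Restored genes of experiment 2 had a median of 8 and those not restored 11, so Ptprv and Ptpn7 are below the median of their group.

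The Ezh1 rescue had H3K27me3 peaks over a far larger part of the genome than the knockout. Its peaks covered 252.6 Mb, or 10.6% of the autosomes, against 0.05885 Mb in knockout replicate 1 and 0.481 Mb in replicate 2 (0.270 ± 0.298 Mb, SD, n = 2). The covered length was 936 times the knockout mean, 4292 times that of replicate 1 and 525 times that of replicate 2, since the knockout libraries themselves differed 8.17-fold. Both knockout lengths lie far below the Ezh1 rescue, and also below the Ezh2 rescue (80.3 Mb) and the 2 wild-type libraries of the same experiment (14.9 and 11.2 Mb). How far the coefficient of the methods, which lowers the knockout more than the Ezh1 rescue, gives these differences was not tested. The knockout libraries of experiment 1 had more peaks (24.3 and 56.6 Mb). Antibody, sequencing, scaling and peak calling cannot be told apart as sources of that difference. Widths set the libraries apart less clearly. The median peak was 1100 bp wide in the Ezh1 rescue, against 1350 bp in knockout replicate 1 and 850 bp in replicate 2, but the widest was 243800 bp in the Ezh1 rescue, against 7950 and 13500 bp in the knockout. Peaks of at least 10 kb numbered 3378 in the Ezh1 rescue and made up 27.5% of its covered length. By chromosome, Ezh1 rescue peaks covered from 5.98% (chromosome 3) to 16.2% (chromosome 11), and chromosome 11 also held 17.8% of the peaks of knockout replicate 2 on 4.96% of the autosomal sequence.

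**Figure D1:**
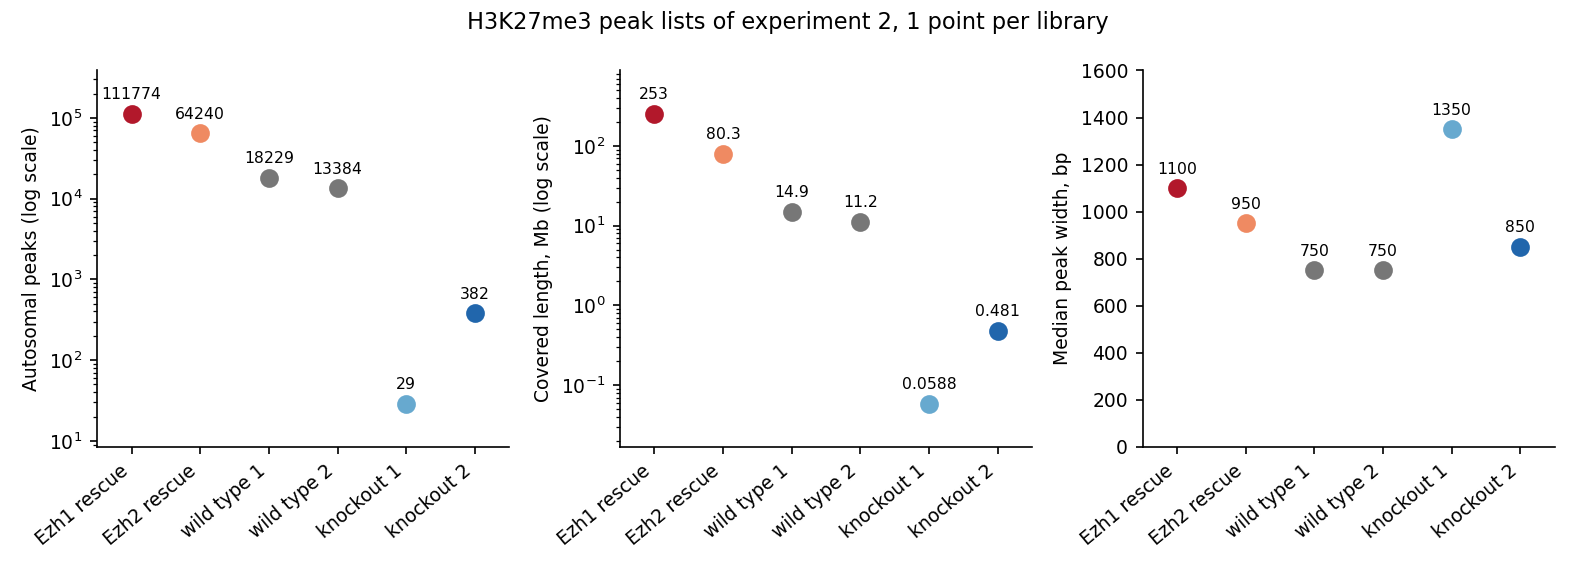
Autosomal peaks (left, log scale), covered length in Mb (middle, log scale) and median peak width in bp (right) of the 6 libraries of experiment 2, 1 point per library. The Ezh1 rescue has the most peaks (111774) and the knockout libraries the fewest (29 and 382), while the median widths (1100 bp with added Ezh1, against knockout values of 1350 and 850 bp) do not follow that order.

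What was left in the knockout lay almost wholly within peaks of the Ezh1 rescue. All 29 peaks of knockout replicate 1 (100%, interval 88.3% to 100%) and 370 of the 382 of replicate 2 (96.9%, 94.6% to 98.2%) were under a peak of the Ezh1 rescue, and in 368 this held over their whole length. Under an Ezh2 rescue peak lay 27 of the 29 and 311 of the 382 (81.4%, 77.2% to 85.0%), in a list that covered 80.3 Mb against 252.6 Mb. The Ezh1 rescue peaks over knockout peaks were wide. The peak over a knockout peak had a median width of 28900 bp for replicate 2, 22.4 times that of the knockout peak beneath it. The 251 Ezh1 rescue peaks with a knockout peak had a median width of 16900 bp, against 1100 bp for the other 111523, and knockout peaks took 6.51% of their 7.26 Mb. At least 10 kb wide were 67.7% of the 251 and 2.88% of the others. A wide peak has more room to meet a knockout peak, and how far width alone gives this difference was not tested.

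The knockout libraries shared 25 joined regions, all of them wholly under 21 Ezh1 rescue peaks that were 5750 to 169800 bp wide (median 52650 bp). The widest pair stood side by side within Grinl1a on chromosome 9 (71351801 to 71360750 and 71361101 to 71374600) under a single Ezh1 rescue peak of 63750 bp. The next, of 7650 bp, covered the TSS of Wnt7b, a secreted WNT ligand on chromosome 15 (gene from 85365869 to 85412251), under an Ezh1 rescue peak of 59000 bp. Others touched the promoters of the neuronal transcription factors Neurod2 (5350 bp) and Uncx (5750 bp) and of Prdm12 (4250 bp), a regulator of sensory neurons, and 2 lay near Adamts8 (6400 and 3050 bp), a secreted protease. The Ezh1 rescue peak was 46050 bp wide at Neurod2, 54600 bp at Uncx, 42550 bp at Prdm12 and 76350 bp near Adamts8. Of the 25 regions, 2 had no Ezh2 rescue peak, that within 4933421E11Rik and that at Mgat5b, where the Ezh1 rescue peak spanned 169800 bp.

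**Figure D2:**
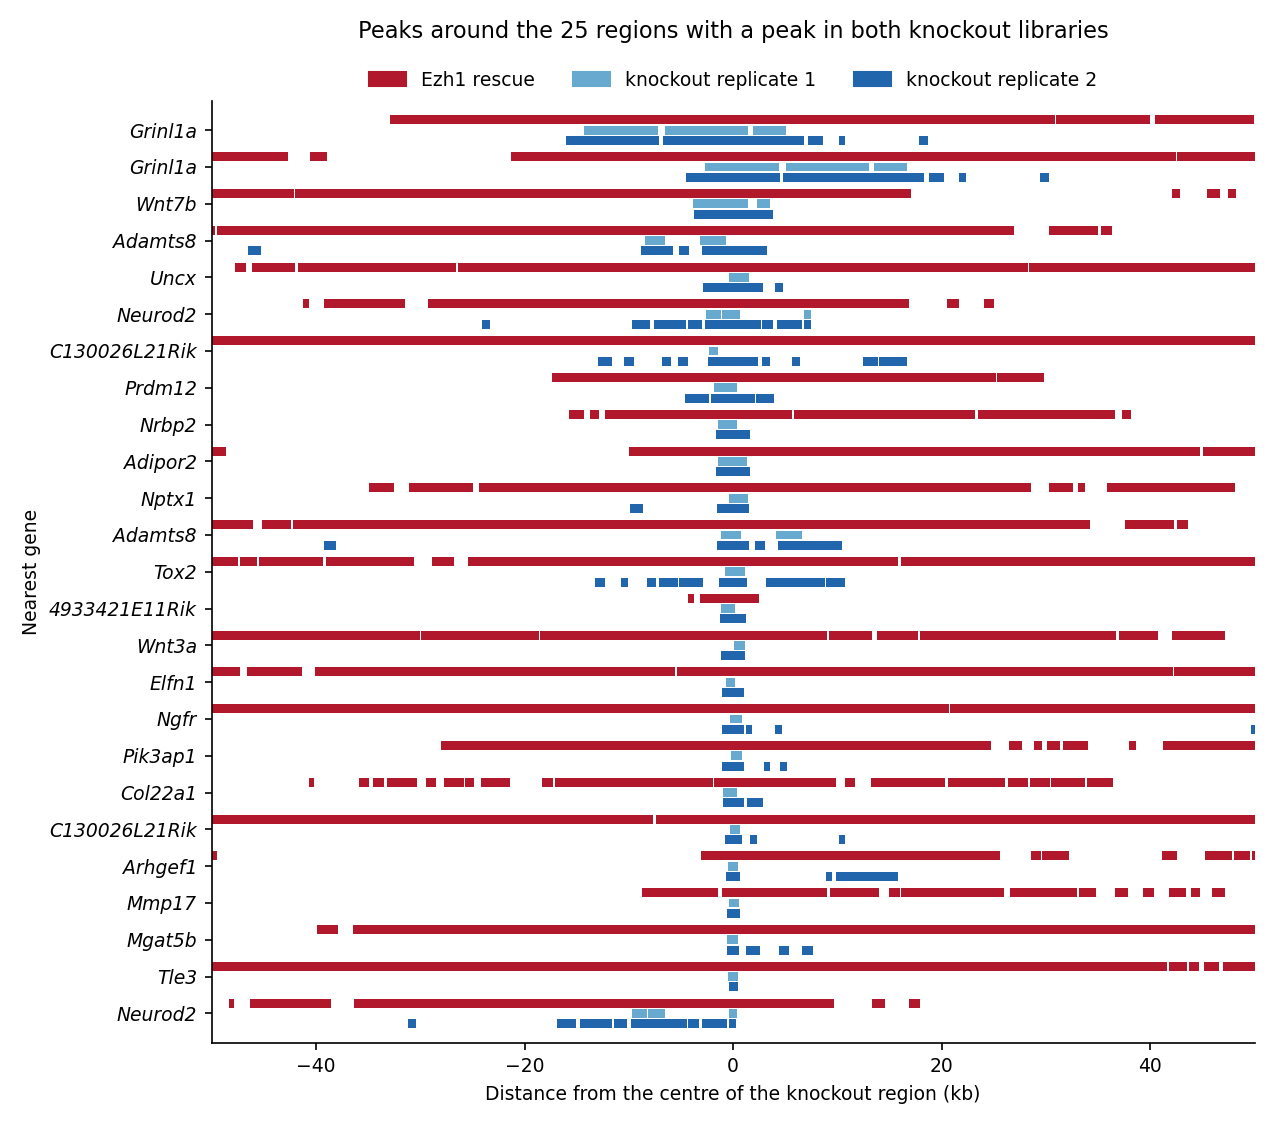
Peaks of the Ezh1 rescue and of the 2 knockout libraries within 50 kb of the centre of each of the 25 regions with a peak in both knockout libraries (distance in kb; rows are named by the nearest gene). Each knockout region lies inside a longer Ezh1 rescue peak, 63750 bp wide at Grinl1a and 59000 bp at Wnt7b.

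Most Ezh1 rescue peaks, 111523 of 111774 (99.8%), met none in the knockout, whose short lists leave room for few overlaps. With the knockout libraries of experiment 1 counted too, 106014 (94.8%) had none. The 111523 were sorted by where else a peak was found. A wild-type peak in at least 1 of the 4 wild-type libraries overlapped 60138 of them (53.8% of Ezh1 rescue peaks, 75.8% of the covered length, median width 1650 bp). A further 6105 (5.46%) met only an Ezh2 rescue peak. The remaining 45280 (40.5%) met no wild-type, Ezh2 rescue or experiment 2 knockout peak (the experiment 1 knockout was not part of this sorting), but they were narrow (median 850 bp) and held 17.8% of the covered length. The share of peaks that touched a promoter was 10.4% for those with a wild-type peak and 4.43% for those with none. For the 251 peaks with a knockout peak it was 56.6%. Wider peaks touch more promoters, and the median widths were 1650, 850 and 16900 bp in this order. How far width gives these shares was not tested. Promoters make up 4.14% of the autosomal sequence, but this is a share of bases and no background for peaks that touch. The peaks also differed in base composition. GC content was 46.7% in peaks with a wild-type peak, 45.2% in the remaining peaks and 50.2% in those with a knockout peak, against 41.9% over the autosomes, and the knockout peaks themselves had 50.7% (replicate 1) and 51.6% (replicate 2). CpGs per 100 bp were 1.14, 0.988 and 1.51 in these 3 classes, 2.43 and 2.16 in the knockout peaks and 0.851 over the autosomes.

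The widest peaks without a knockout peak included sites at adaptor, homeobox and forkhead genes. The first, of 243800 bp within Skap1, an adaptor of T cells (chromosome 11, 96342501 to 96586300), was followed by 146200 bp over Dlx3 and Dlx4, homeobox factors of ectoderm and placenta and, further down, 137150 bp at Mn1. Foxf1a, a forkhead factor of lateral mesoderm (chromosome 8, 123608286 to 123610851), lay under 123050 bp, and Wnt7a under 110200 bp. In the 2 wild-type libraries of experiment 1, peaks covered 92.5% and 98.4% of the stretch within Skap1, and 81.2% and 87.4% of that over Dlx3 and Dlx4. In those of experiment 2, where lists are shorter, they covered 16.0% and 9.54%, and 19.2% and 12.4%.

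Regions that wild-type cells had and knockout cells lacked were mostly restored, that is, under an Ezh1 rescue peak, whether kept or regained. The share depended on the wild-type list. Reproducible regions, where peaks of both wild-type libraries overlap, numbered 3855 without a knockout peak in experiment 2, and 3618 of them (93.9%, 93.0% to 94.6%) lay under an Ezh1 rescue peak. The Ezh2 rescue had 3288 of them (85.3%, 84.1% to 86.4%). In experiment 1, 35916 of 45696 (78.6%, 78.2% to 79.0%) were restored by this measure and 71.6% of their length was covered, and the Ezh2 rescue had 48.7%. The Ezh1 rescue list covered 252.6 Mb against 80.3 Mb in the Ezh2 rescue, so it has more room to meet any region. Each rescue is 1 library whose own depth is not given, so these shares do not rank the added enzymes. With at least 50% of the region required under peaks, the share fell to 65.8% for experiment 1 and was 93.4% for experiment 2. All 74 regions of experiment 2 and all 256 of experiment 1 that did meet a knockout peak lay under an Ezh1 rescue peak. How Ezh1 rescue peaks and wild-type regions compared in width also depended on the list. The restored regions of experiment 2 had a median width of 1100 bp and lay under peaks of median 11350 bp, a median ratio of 9.33, with 93.9% wholly covered, and those of experiment 1 had 2509 bp under 3850 bp, a median ratio of 1.45, with 41.8% wholly covered. Widths are those of called peaks and give no amount of H3K27me3.

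Narrow wild-type regions were restored less often than wide ones. In experiment 1 the share was 56.6% (54.4% to 58.8%) for regions under 500 bp, 64.3% from 500 to 1000 bp, 72.8% from 1000 to 2000 bp, 83.9% from 2000 to 5000 bp, 91.9% from 5000 to 10000 bp, 94.8% from 10000 to 20000 bp and 98.6% (97.5% to 99.2%) at 20000 bp or more. The covered share of their length, which a wide region does not raise by its width alone, rose in the same order and was 52.4% in the narrowest and 84.6% in the widest class. In experiment 2 the 3 classes from 500 to 5000 bp had 89.3%, 95.8% and 98.4%. Regions at promoters were restored more often (89.9%, 89.1% to 90.6%) than those in gene bodies (80.4%) or between genes (75.1%) in experiment 1. Among regions of 1000 to 2000 bp the order was the same, with 81.7%, 75.3% and 70.0%. In experiment 2 the 3 shares lay between 92.9% and 95.3% and did not follow that order. Regions of experiment 1 that were not restored had a GC content of 40.4%, against 45.6% in restored ones, and they less often met a wild-type peak of experiment 2 (5.67% against 29%). By chromosome, the share in experiment 1 was between 65.2% on chromosome 18 and 88.5% on chromosome 17, and in experiment 2 chromosome 18 was lowest too (54 of 62 regions, 87.1%).

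**Figure D3:**
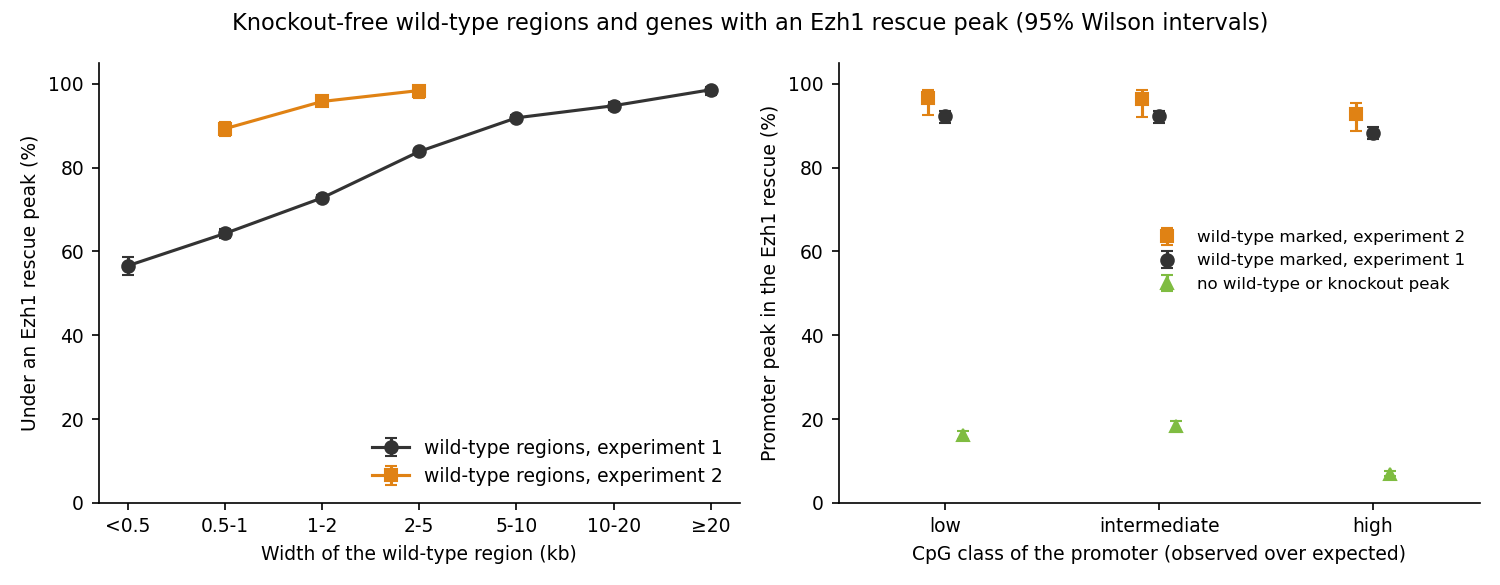
Left, share of wild-type regions without a knockout peak that lie under an Ezh1 rescue peak, by region width in kb; right, share of genes with an Ezh1 rescue promoter peak by CpG class of the promoter. Bars are 95% Wilson intervals. On the left the share is 56.6% for the narrowest and 98.6% for the widest regions of experiment 1; on the right genes with a reproducible wild-type peak stand between 88.3% and 96.8% and genes with none that is reproducible between 6.98% and 18.3%.

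At the level of genes, 6170 of 21418 autosomal protein-coding genes (28.8%) were marked at the promoter in the Ezh1 rescue, against 9 (0.042%) in knockout replicate 1 and 84 (0.392%) in replicate 2, with 8 (0.0374%) in both. Of the 6170, 6090 (28.4% of all genes) had no knockout promoter peak. Genes with a reproducible wild-type promoter peak and none in the knockout numbered 531 in experiment 2, of which 504 (94.9%, 92.7% to 96.5%) had an Ezh1 rescue peak, and 4378 in experiment 1, of which 3971 (90.7%, 89.8% to 91.5%) did. Of the 16871 genes without a reproducible wild-type promoter peak of either experiment and without a knockout one, some of which have a peak in 1 wild-type library, 2053 (12.2%) had one in the Ezh1 rescue, and these peaks were small. They covered a median of 22.9% of the promoter and the widest peak there had a median of 1250 bp, against 82.0% and 5700 bp at restored genes of experiment 1.

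The restored genes of experiment 2 under the widest Ezh1 rescue peaks included phosphatases, homeobox factors and matrix genes. Ptprv, a receptor tyrosine phosphatase, and its neighbour Ptpn7, a phosphatase of lymphoid cells, shared a peak of 165200 bp that covered the promoter of each to 100% in the Ezh1 rescue and 0% in both knockout libraries. The wild-type libraries of experiment 2 covered 67% and 34.4% of the Ptprv promoter and 26.0% and 30% of that of Ptpn7. Dlx3 and Dlx4 were likewise at 100% in the Ezh1 rescue and 0% in both knockout libraries. Adamtsl2, a secreted glycoprotein of the matrix (chromosome 2, 26934899 to 26964501), was at 100% with either added enzyme, 95% and 82.0% in wild type and 0% in both knockout libraries. Ppy, which encodes pancreatic polypeptide, Mpp3 and Tmem8c also had 100% in the Ezh1 rescue, and E130012A19Rik had 70.0%. These genes were picked by the widest Ezh1 rescue peak, which favours a high cover in that library. None of these promoters had a peak in the 2 knockout libraries compared here, as the choice of the group requires, but that of E130012A19Rik was covered to 11.9% and 18.2% in the separate knockout libraries of experiment 1. Elsewhere under the 165200-bp peak at Ptprv and Ptpn7, knockout replicate 2 had 2 peaks.

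The 8 genes with a promoter peak in both knockout libraries were Wnt7b, Wnt3a, Prdm12, Nptx1, Elfn1, Ngfr, Mgat5b and Mmp17. At Wnt7b, Ezh1 rescue peaks covered 100% of the promoter, against 54.0% in knockout replicate 1 and 78% in replicate 2. Wnt3a, another WNT ligand, had 100%, against 20% and 40.9% in the knockout. Prdm12 had 100%, against 35.9% and 99.0%. The order was the same at all 8, with the Ezh1 rescue highest and knockout replicate 1 lowest. Nptx1, a neuronal pentraxin, had 100%, against 36.0% and 62.0%, and Ngfr, a neurotrophin receptor, had 100%, against 24% and 55%. The others were Elfn1 (100%, against 17.0% and 36.9%), Mgat5b, a glycosyltransferase of brain (100%, against 21.0% and 31.5%), and Mmp17, a membrane-bound metalloproteinase (92.0%, against 19% and 25%). Other promoters had a peak in knockout replicate 2 and none in replicate 1. Neurod2 had 100% in the Ezh1 rescue, against 0% and 91.0% in the knockout, although replicate 1 also had peaks at Neurod2, outside the promoter window. Onecut3 had 100%, against 0% and 87.0%, and Olig2, a factor of oligodendrocyte precursors, 100%, against 0% and 71.1%. Ihh and Shh, hedgehog ligands, had 100% each, against 73.0% and 21.0% in replicate 2 and 0% in replicate 1.

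In all, 85 genes had a promoter peak in at least 1 knockout library. Of these, 80 (94.1%, 87.0% to 97.5%) had one with added Ezh1, 77 in the Ezh2 rescue and 78 a reproducible one in wild type of experiment 1. Ezh1 rescue peaks covered a median of 100% of the promoter at the 80, with a median widest peak of 25925 bp. Around the TSS of the 85 genes, the share under an Ezh1 rescue peak was 80% at the TSS itself and highest, at 94.1%, 1750 bp upstream. It was still 52.9% at 20 kb upstream and 64.7% at 20 kb downstream. In knockout replicate 2 the share was 16.5% at the TSS, reached 47.1% at 1000 bp downstream and was 0% at 20 kb on either side. At the 4378 genes with a wild-type peak of experiment 1 and no knockout peak, the Ezh1 rescue had 59.4% at the TSS and 67.9% at 1250 bp upstream, so a dip at the TSS was seen in both groups. Genes with no reproducible wild-type and no knockout peak had 3.27% at the TSS and 10.1% at 20 kb upstream. That group was chosen for lacking such peaks near the TSS, so its low share there follows in part from the choice.

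**Figure D4:**
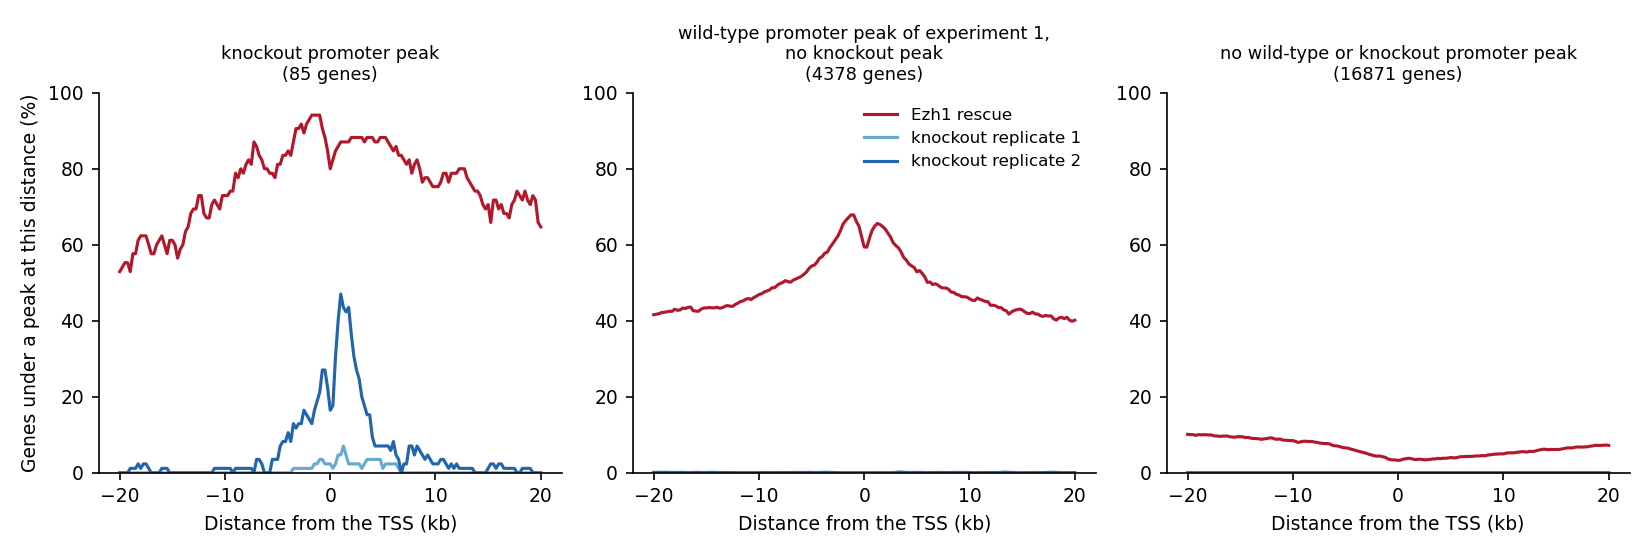
Share of genes under a peak at each distance from the TSS (kb; negative is upstream) for 85 genes with a knockout promoter peak (left), 4378 genes with a reproducible wild-type promoter peak of experiment 1 and none in the knockout (middle) and 16871 genes with no reproducible wild-type and no knockout peak (right). The Ezh1 rescue line is 80%, 59.4% and 3.27% at the TSS. The groups were chosen by promoter peaks of wild type and knockout, so the height of the knockout lines is set by that choice. Near the TSS the Ezh1 rescue lines are not free of it, since most wild-type regions lay under an Ezh1 rescue peak.

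Few wild-type marked genes were left without an Ezh1 rescue peak. In experiment 2 they numbered 27, and 9 of them (33.3%) had a wild-type peak in experiment 1, against 438 of the 504 restored genes (86.9%). The one with the widest wild-type region was Plxdc1, a transmembrane protein of endothelium (chromosome 11, 97784552 to 97847758). Its promoter was at 0% with added Ezh1, 19% in the Ezh2 rescue, 40.9% and 48.9% in the wild-type libraries of experiment 2, 0% in both wild-type libraries of experiment 1 and 0% in both knockout libraries. Atp6v0c, a subunit of the vacuolar proton pump, had 0% with added Ezh1, 14.9% in the Ezh2 rescue, 23.9% and 28.9% in wild type and 0% in both knockout libraries. Slc9a3r2, a scaffold protein, Krt13, a keratin of stratified epithelium, Tsc22d4 and Rad9, which acts in the DNA damage checkpoint, were also without an Ezh1 rescue peak, with wild-type regions of 1950, 1800, 1250 and 1100 bp. The promoter of Krt13 was covered to 6.52% and 68.4% in the knockout libraries of experiment 1, against 0% and 11.3% in its wild-type libraries. Acp1, a phosphatase, and 1500009L16Rik were marked in wild type of both experiments and at 0% in the Ezh1 rescue. Of experiment 1, the widest region without any Ezh1 rescue peak spanned 32550 bp on chromosome 4 (56338101 to 56370650), 382228 bp from the nearest protein-coding gene, Actl7b, and the next 30258 bp within Htr4, a serotonin receptor gene on chromosome 18. Of the 10 widest, 5 were on chromosome 18.

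Conversely, 12 peaks of knockout replicate 2 had no Ezh1 rescue peak, and several of the wider ones lay in genes that are highly expressed in most cells. Among them were Hspa8, a constitutive chaperone (950 bp), Nop56, a factor of ribosome assembly (900 bp), and the histone gene Hist1h1e (850 bp, shared with the promoter of Hist1h2be); 1 more lay in Brd2, a bromodomain protein. The promoters of Hspa8, Nop56, Hist1h2be and Hist1h1e, had no peak in the Ezh1 rescue, the Ezh2 rescue, any wild-type library or knockout replicate 1. In the separate knockout libraries of experiment 1, the promoter of Hspa8 was covered to 32.9% and 28.4%, and that of Nop56 to 23.3% and 25.2%, while the histone genes had none. The knockout replicate 2 peak covered 0.34% of the Hspa8 promoter window and 16.3% to 17.0% of the other 3.

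Lists of genes that share a function were read against the share of all genes with an Ezh1 rescue promoter peak, 28.8%. Members named from the lists were mostly picked by the width of their Ezh1 rescue peak. Their high promoter cover in that library thus follows in part from the choice. Regulators of development stood well above the 28.8%, but not in the Ezh1 rescue alone. In the Ezh2 rescue the 3 lists named next had 58.3%, 59.4% and 75%, against 19.6% of all genes. In wild type of experiment 1 they had 76.7%, 68.8% and 67.9%, against 20.8%. Of 60 neural and ectodermal transcription factors 48 (80%, 68.2% to 88.2%) had an Ezh1 rescue peak, against 0 in knockout replicate 1 and 8 in replicate 2. Lmx1b, a factor of limb and midbrain, had a promoter cover of 98.0% in the Ezh1 rescue and Pax3, a regulator of neural crest, one of 100%, both with 0% in the knockout libraries. Six3, a forebrain factor, had 100% in the Ezh1 rescue, against 0% and 13.0% in the knockout. Of 64 mesoderm and endoderm transcription factors 47 (73.4%) had one, against none in either knockout library. Foxf1a, Myog, a muscle factor, and Gata4 and Gata5, factors of heart and gut, were at 100% in the Ezh1 rescue. Of 56 secreted developmental signals 45 (80.4%) had one, against 2 and 7 in the knockout. Wnt7a lay under 110200 bp and Wnt9b under 63800 bp in the Ezh1 rescue, both without a knockout promoter peak. Almost all members of these 3 lists with a wild-type peak of experiment 1 and no knockout peak had one in the Ezh1 rescue, with 37 of 38, 43 of 44 and 30 of 31, near the 90.7% of all such genes. The exceptions were Foxd3, Myf6 and Grem1, named after their values were seen.

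HOX genes, which set position along the body axis, were divided. Of 39, 25 (64.1%, 48.4% to 77.3%) had an Ezh1 rescue peak and none had a knockout peak. Hoxb13 lay under a peak of 96850 bp, Hoxc9 to Hoxc13 under 1 of 85150 bp, Hoxb5 to Hoxb9 under 1 of 70100 bp and Hoxa7 to Hoxa13 under 1 of 37950 bp. The 14 without included Hoxb2, Hoxb3, Hoxc4 to Hoxc6, Hoxc8, Hoxd4 and Hoxd8. All 24 HOX genes with a reproducible wild-type peak of experiment 1 had one in the Ezh1 rescue (90.7% of all such genes did), so the 14 are genes without such a peak in wild type as well.

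Several other lists were above the share of all genes too. Peaks in the Ezh1 rescue marked 24 of 30 epithelial genes (80%; Ovol1, Krt7, Esrp1 and Krt17 over at least 96.0% of the promoter), 39 of 52 potassium and calcium channel genes (75.0%; Cacna1g and Kcnc4 at 100%), 21 of 31 blood and endothelial cell genes (67.7%; Cd79b, Irf8 and Ikzf3 at 100%), 21 of 41 collagen genes (51.2%) and 134 of 315 solute carrier genes (42.5%). The knockout had 3 of the channel genes, 1 solute carrier gene and none of the others, all in replicate 2. Imprinted genes were near the share of all genes, with 14 of 39 (35.9%, 22.7% to 51.6%), against 0 in knockout replicate 1 and 2 in replicate 2, namely Dio3 and Mkrn3. So were keratin-associated protein genes (16 of 46) and Polycomb complex genes (8 of 30, among them Rybp, Phf19 and the chromobox genes Cbx2 and Cbx8), with no knockout peak.

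The lists of fibroblast, housekeeping, cell cycle, ribosomal protein and histone genes were below; expression was not analysed here. Of 32 fibroblast genes 3 had an Ezh1 rescue peak (Fbln1 over 82.4% of the promoter, Tpm1 over 12% and Thy1 over 2.34%), as did 2 of 32 housekeeping genes (Reep5 over 23.0% and Rps3 over 13.0%), 4 of 38 cell cycle genes (Cdk6 over 100%, Ccnd2, Cdk4 and Bub1 over at most 29.3%), 6 of 76 ribosomal protein genes and 1 of 67 histone genes (against 0 and 2 in the knockout). With knockout peaks at only 0.042% (replicate 1) and 0.392% (replicate 2) of all genes, their absence from most lists says nothing about those lists. Large families of sensory receptors were low as well, with 127 of 1081 olfactory receptor genes (11.7%, 9.96% to 13.8%) and 19 of 321 vomeronasal receptor genes (5.92%), as were 55 of 353 Zfp zinc finger genes (15.6%). The 3 of 24 clustered protocadherin genes (12.5%, 4.34% to 31.0%) could not be told from all genes, and none had a peak within 1000 bp of the TSS.

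**Figure D5:**
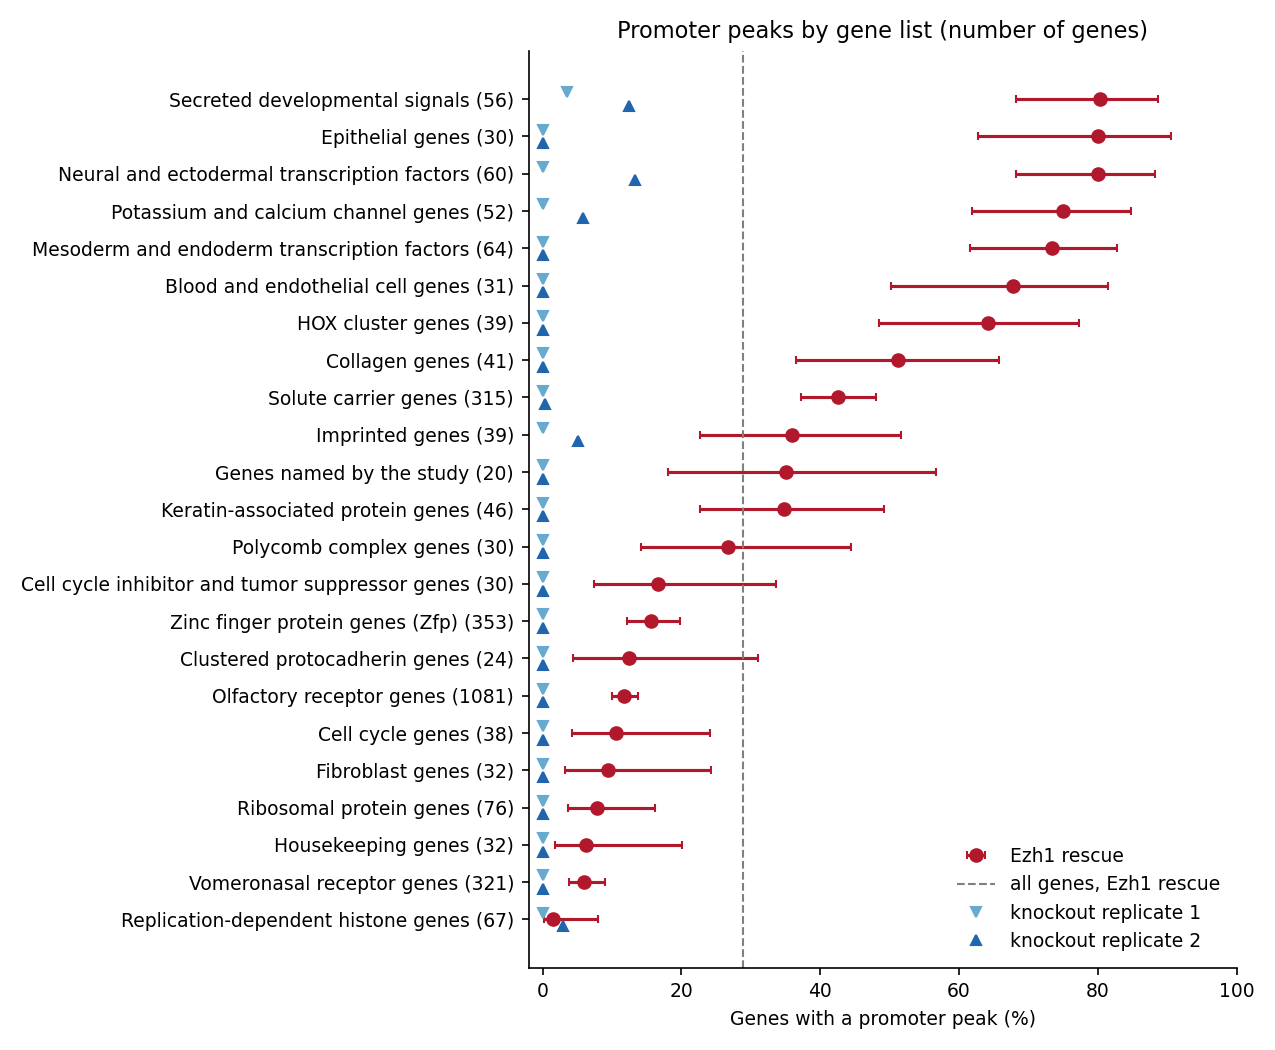
Share of the genes of each list (number of genes in brackets) with a promoter peak in the Ezh1 rescue (circles with 95% Wilson intervals), knockout replicate 1 (triangles pointing down) and knockout replicate 2 (triangles pointing up); the dashed line is the Ezh1 rescue share of all genes, 28.8%. Secreted signals (80.4%), epithelial genes and neural factors (80% each) are highest in the Ezh1 rescue, and the knockout is at most 13.3%. Not drawn are the Ezh2 rescue (75%, 63.3% and 58.3%, against 19.6% of all genes) and wild type of experiment 1 (67.9%, 66.7% and 76.7%, against 20.8%).

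Knockout peaks were rarest at promoters of low CpG content, and Ezh1 rescue peaks were not. Promoters (500 bp on either side of the TSS) were classed by the ratio of observed to expected CpGs as high (at least 0.6), intermediate or low (under 0.3). Knockout peaks marked 62 of 9950 high, 21 of 4576 intermediate and 2 of 6892 low promoters, whereas Ezh1 rescue peaks marked 21.8%, 38.7% and 32.3% of these classes. High promoters made up 57 of the 80 genes with peaks in both the Ezh1 rescue and the knockout, 38.4% of the restored genes of experiment 1, 49.4% of those not restored, 27.6% of the genes with an Ezh1 rescue peak and neither a reproducible wild-type nor a knockout peak, and 46.5% of all genes. Genes marked in wild type of experiment 1 without a knockout peak were restored in 88.3% (86.7% to 89.8%) of the high, 92.2% (90.6% to 93.6%) of the intermediate and 92.2% (90.7% to 93.5%) of the low class. In experiment 2 the shares were 92.8%, 96.5% and 96.8%, with intervals that overlap.

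Of 20 genes that the study names, a list chosen on these cells and so no independent evidence, 7 had an Ezh1 rescue promoter peak and none a knockout peak. The interval of this share (35%, 18.1% to 56.7%) holds the 28.8% of all genes. Cdkn1a, a cell cycle inhibitor (chromosome 17, 29227924 to 29237667), was at 100% in the Ezh1 rescue, 72.5% and 56.5% in wild type of experiment 2 and 0% in both knockout libraries. Dab2ip, a Ras GTPase-activating protein, was at 100% in the Ezh1 rescue, 16.7% and 12% in wild type and 0% in both knockout libraries. Foxf1a was at 100% and Slit2, an axon guidance ligand, at 47.9% in the Ezh1 rescue, each at 0% in both knockout libraries. Small peaks stood at Cdh1, E-cadherin (16.0%), and Cpa6, a carboxypeptidase (11%), the second of which had 43.0% and 16.3% in wild type of experiment 1. Myc had 0% in the Ezh1 rescue and in both knockout libraries, against 31.2% and 21.5% in wild type of experiment 1. Of 30 cell cycle inhibitor and tumor suppressor genes, which include Cdkn1a and Dab2ip, 5 (16.7%, 7.34% to 33.6%) had an Ezh1 rescue peak and none a knockout peak. This interval too holds the 28.8% of all genes. Knockout peaks marked only 0.042% (replicate 1) and 0.392% (replicate 2) of all genes, so their absence here says nothing about either list. The PRC2 genes Ezh1, Ezh2, Eed and Suz12 and the cell cycle inhibitor Cdkn2a had no promoter peak in the Ezh1 rescue or the knockout.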

How the data were processed

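Chromatin immunoprecipitation with sequencing for H3K27me3, as the labels name the target, had been run in 10 libraries with peak lists. The deposited lists hold peak positions only (chromosome, start, end; no score). Per the methods and the submitters' processing notes, the authors aligned reads to mm9 with Bowtie2 2.1.0 (experiment 2) or Bowtie 0.12.8 (experiment 1), removed duplicates with SAMtools, down-sampled to a common read number, applied a coefficient for the amount of precipitated DNA and called peaks per sample with MACS2 2.0.10 against input. The methods list antibodies against H3K27me3 and H3K27me2/3 without naming the experiment.

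Exact duplicate lines were dropped (328 in the Ezh1 rescue) and the 19 autosomes kept. Overlap meant at least 1 bp. Reproducible wild-type regions were joined peaks of both libraries that overlap. Promoter windows reached 2500 bp up- and downstream from the TSS for 21418 protein-coding genes of GENCODE vM1 (NCBIM37). Of 566 list symbols, 551 matched by symbol and 3 by synonym (names from RefSeq, GRCm38.p6), 4 lay on sex chromosomes, 4 were not protein-coding and 4 did not match. The named genes were those with the widest Ezh1 rescue peak among restored genes and in each list, those marked in both knockout libraries or in the knockout only, those not restored by width of the wild-type region, and those the study names. Members and lists were chosen with earlier results of these data known. Intervals are 95% Wilson intervals; no test was run, since the Ezh1 rescue is 1 library. The interval operations (5) recovered the known answer in 50 of 50 simulated list pairs. Alternatives changed the chromosomes, duplicates, peak joining, peak width, overlap, promoter, wild-type and knockout definition and gene set. Python 3.11.15, NumPy 2.4.6, SciPy 1.17.1 and matplotlib 3.10.9 were used. Some genes that these rules name, and 1 promoter sequence, are not reported here.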

Additional observations from a re-analysis of the deposited data

Results flagged for a closer look

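The X chromosome was left out of the comparisons, and its peaks were looked at because the Ezh1 rescue had many there and the knockout none. The Ezh1 rescue had 2437 X-chromosome peaks over 3.46 Mb (2.13% of the chromosome, median width 900 bp), against 388 in the Ezh2 rescue, 55 and 33 in the wild-type libraries of experiment 2, and 0 in both knockout libraries. Of 806 reproducible wild-type X regions of experiment 1, 373 (46.3%, 42.9% to 49.7%) lay under an Ezh1 rescue peak, against 78.6% of the autosomal regions without a knockout peak. The paper describes the cells as a male line in which an X-linked gene has a single copy. The difference between X and autosomes was not tested, nor was any relation to copy number.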

How the results depend on the processing

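No paired analysis was possible because the Ezh1 rescue is 1 library and no test was run. Of 61 values under the alternatives, 36 stayed near the reported value and 25 moved. Near meant inside the reported 95% Wilson interval for shares and within a fixed factor for counts. For the ratio it meant within that factor and between the values of the 2 knockout libraries. Small moves of a share with a narrow interval thus count as moved, and a change of direction was not assessed. The ratio of covered lengths, 936, ranged between 525 and 4292 without 1 knockout library. Ezh1 rescue peaks without a knockout peak numbered 63318 with neighbours under 1000 bp apart joined and 66457 once peaks under 1000 bp were dropped. Knockout peaks under an Ezh1 rescue peak were 96.9% to 100% without 1 knockout library and 99.3% once peaks under 1000 bp were dropped. Restored regions of experiment 2 were 98.0% with only peaks of at least 1000 bp, 84.1% with regions of either wild-type library and 84.6% to 93.9% without 1 library. Restored regions of experiment 1 were 78% with sex chromosomes, 79.8% with peaks joined, 82.5% with only peaks of at least 1000 bp, 65.8% with 50% overlap, 64.9% with regions of either wild-type library, 78.2% with absence in the knockout of both experiments and 67.5% to 78.7% without 1 library. With all annotated genes, 9297 had an Ezh1 rescue and no knockout promoter peak. Restored genes of experiment 2 were 97.1% with only peaks of at least 1000 bp, 92.3% with promoters of 1000 bp, 90.3% with either wild-type library, 90.7% by experiment 1 and 91.4% to 95.1% without 1 library. Of 57 list values under 3 alternatives chosen after seeing the data, 53 stayed near the reported share. Depth limits all lists: with no read counts, a missing peak cannot be told apart from one too weak to be called, and the precision is unknown.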
